A study of Mus musculus with 32 samples.

Results

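CD8 T cells and CD4 conventional T cells taken from the same Treg-treated hosts were compared in 8 of the 32 samples of a mouse study of graft-versus-host disease, 31 of which are RNA libraries. The libraries were chosen by their labels alone: 4 CD8 libraries and the 4 CD4 libraries that carry the same prefix and number, read as 4 hosts that each gave both cell types. The hosts are called JL019-1, JL019-2, JL027-1 and JL027-2, and per-library values are given in that order throughout. JL019 and JL027 are the label prefixes, treated as batches.

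All cells were primary T cells of C57Bl6 donors. In the Treg-treated hosts they had been transferred into Balb/c mice, which differ from the donor at the major histocompatibility genes, together with donor regulatory T cells (Treg) given on day 0, and were sorted from spleen and lymph nodes. The titles place this at day 6 and the series description at day 8. Allogeneic hosts had the same mismatched transplant without added Treg (4 libraries of each cell type), syngeneic hosts had donor cells in matched mice (3 of each), and day 0 cells had not been transplanted (2 of each). A further 3 libraries held Treg sorted from Treg-treated hosts. The labels name no sorting gate, age or sex. They do not say whether hosts were pooled, so p-values measure the spread between these libraries.

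The CD4 and CD8 coreceptors bind major histocompatibility complex class II and class I molecules and set which antigens a T cell sees. During thymic development the factor ThPOK, encoded by Zbtb7b, keeps cells in the CD4 helper lineage, and Runx3 acts in the CD8 cytotoxic lineage. In graft-versus-host disease donor CD8 cells can kill host cells through perforin and granzymes, donor CD4 cells supply cytokines and CD40 ligand, and Treg restrain both.

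Promoter windows of 5 lineage genes, printed in 5′ to 3′ direction from RefSeq (build GRCm38.p6), cover 250 bases before to 50 bases after an annotated start. They are shown because these genes encode a coreceptor or a factor of the lineage choice that the comparison is about. Capitals mark TGTGGT or its reverse complement ACCACA, the core sequence bound by Runx factors.
Cd8a, chr6:71373177-71373476, plus strand: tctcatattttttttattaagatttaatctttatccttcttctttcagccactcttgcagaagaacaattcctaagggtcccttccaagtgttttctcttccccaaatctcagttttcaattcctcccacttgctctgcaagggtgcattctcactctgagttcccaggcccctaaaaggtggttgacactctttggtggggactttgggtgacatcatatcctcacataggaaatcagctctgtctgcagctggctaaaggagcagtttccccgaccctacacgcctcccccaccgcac
Zbtb7b, chr3:89387622-89387921, minus strand: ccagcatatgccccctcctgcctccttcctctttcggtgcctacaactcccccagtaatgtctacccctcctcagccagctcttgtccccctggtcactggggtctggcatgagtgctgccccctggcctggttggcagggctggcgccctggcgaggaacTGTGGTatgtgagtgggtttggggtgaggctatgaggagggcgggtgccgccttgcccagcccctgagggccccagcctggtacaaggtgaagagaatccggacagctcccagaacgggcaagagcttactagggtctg
Runx1, chr16:92826025-92826324, minus strand: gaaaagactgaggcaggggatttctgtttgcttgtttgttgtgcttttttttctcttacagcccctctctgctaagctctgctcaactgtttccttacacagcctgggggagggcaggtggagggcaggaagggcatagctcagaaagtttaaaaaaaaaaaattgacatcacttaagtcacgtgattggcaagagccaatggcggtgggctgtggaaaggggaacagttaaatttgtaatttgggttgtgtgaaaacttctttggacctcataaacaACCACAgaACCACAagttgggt
Runx3, chr4:135120395-135120694, plus strand: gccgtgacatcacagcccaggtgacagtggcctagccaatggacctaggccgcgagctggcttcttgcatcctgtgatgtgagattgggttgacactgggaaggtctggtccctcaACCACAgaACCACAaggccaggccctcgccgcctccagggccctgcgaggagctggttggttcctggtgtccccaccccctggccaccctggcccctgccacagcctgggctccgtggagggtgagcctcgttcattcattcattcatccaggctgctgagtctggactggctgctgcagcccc
Gata3, chr2:9878551-9878850, minus strand: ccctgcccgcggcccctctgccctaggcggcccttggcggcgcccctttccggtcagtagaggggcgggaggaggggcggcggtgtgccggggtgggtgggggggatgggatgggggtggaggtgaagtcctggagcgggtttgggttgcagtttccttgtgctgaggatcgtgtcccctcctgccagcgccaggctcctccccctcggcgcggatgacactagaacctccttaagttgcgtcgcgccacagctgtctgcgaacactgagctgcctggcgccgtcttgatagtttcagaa
The Cd8a and Gata3 windows held no match, this Zbtb7b window held 1, and these Runx1 and Runx3 windows each held 2. Of 2 tabulated windows for each of Zbtb7b, Runx1 and Runx3 the one with a match is printed, and the other held 0. Over all tested genes with an entry (11718 of 16741), 13.5% of 14805 windows held the sequence on either strand. The share was 14.9% of 998 windows of genes higher in CD8 cells and 16.9% of 833 windows of genes higher in CD4 cells. A match describes these letters and not binding.

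The RNA table gave normalised counts for 16741 genes, whose sequencing depth is unknown. The library means of the 8 libraries lay between 1608 and 2385, and 1.27% to 3.27% of genes were at 0. The library labelled CD4 syngeneic replicate JL019-2 held Cd4 at 1659 and Cd8a at 1956, against 14577 or more and 114.1 or less in the other 2 syngeneic CD4 libraries. It enters the comparison only through the shared estimate of the spread.

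CD8 and CD4 cells of Treg-treated hosts differed in 1898 genes, 11.3% of those tested, of which 1003 (5.99%) were higher in CD8 cells and 895 (5.35%) were higher in CD4 cells. A gene was called at an adjusted p under 0.05 from limma on log2(normalised count + 1) with the host as a block. Differences are CD8 minus CD4 on that scale, on which changes of weakly expressed genes appear smaller than they are. The 4 CD8 and 4 CD4 values did not overlap in 1877 genes (11.2%), and 1180 of these were called. The median difference over all genes was -0.03. Without CD4 syngeneic replicate JL019-2, 3315 genes were called (1950 higher in CD8 cells). With a term for the library mean 4769 were called. In the JL019 hosts alone 85 were called (20 higher in CD8 and 65 in CD4 cells), and in the JL027 hosts alone 2305. Leaving out host JL019-1 gave 1013 (461 and 552) and leaving out JL027-2 gave 890 (387 and 503). Which cell type had more called genes thus depended on the setting: CD4 cells also had more with quantile normalisation (781 higher in CD8 and 870 in CD4 cells), after centring each library on its median (903 and 965), in a fit of only the groups compared (638 and 686) and at a log2 difference of at least 1 (518 and 652).

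The coreceptors separated the sorted cells in every host. Cd4 (ENSMUSG00000023274) had normalised counts of 9108, 8722, 17587 and 9369.5 in the CD4 libraries and 8.76, 70.7, 38.1 and 16.6 in the CD8 libraries (log2 difference -8.67 ± 0.52 (SE), adjusted p = 3.40e-08). Cd8a (ENSMUSG00000053977) had 22586, 29769, 25031 and 28831 in the CD8 libraries and 64.4, 28.8, 39.5 and 19.4 in the CD4 libraries (log2 difference 9.53 ± 0.62 (SE), adjusted p = 7.40e-08). Cd8b1 (ENSMUSG00000053044), which encodes the beta chain of the CD8 coreceptor, had 50962, 113800, 46742 and 60123 in the CD8 libraries and 798, 801, 386 and 585 in the CD4 libraries (log2 difference 6.68 ± 0.30 (SE), adjusted p = 3.01e-09). No values of these 3 genes overlapped. In CD4 cells Cd4 was 334-fold higher than in CD8 cells by the group means, and Cd8b1 was 106-fold higher in CD8 cells. The T-cell receptor signalling genes Cd3e, Cd3d, Cd247 and Lck were not called (log2 differences -0.16, -0.41, -0.45 and 0.10). The Cd247 values nevertheless did not overlap, with 13610.5, 13826, 12033 and 13861 in the CD4 and 9142, 10407, 8804 and 10879.5 in the CD8 libraries.

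Of the factors of the lineage choice, Zbtb7b had normalised counts of 587, 597, 548 and 512 in the CD4 libraries and 295, 219.6, 216 and 118 in the CD8 libraries (log2 difference -1.47 ± 0.36 (SE), adjusted p = 0.0125), with no overlap. Gata3, a factor of CD4 development and of type 2 helper cells, had 6002, 7989.6, 5485 and 4995 in the CD4 libraries and 2569, 1512, 2283 and 1599 in the CD8 libraries (log2 difference -1.63 ± 0.31 (SE), adjusted p = 0.00227), also with no overlap. Runx1 had 1406, 2039, 731 and 1164 in the CD4 libraries and 871, 865, 518 and 694 in the CD8 libraries (log2 difference -0.79 ± 0.20 (SE), adjusted p = 0.0139), its groups overlapped, and it kept its call in 10 of 15 alternatives. Runx3 had 2217, 1139.8, 2053 and 1444 in the CD8 libraries and 1179.97, 1519.9, 1277 and 1132 in the CD4 libraries, which is 1.34-fold by the means and was not called (log2 difference 0.38 ± 0.25 (SE), adjusted p = 0.371). Its CD8 value was above the CD4 value in 3 of the 4 hosts and below it in JL019-2. Of the 17 genes in the list of coreceptors and lineage factors, 2 were higher in CD8 cells, 5 were higher in CD4 cells and 10 were not called, among them Tox, Patz1, Bcl11b, Satb1 and Ikzf1 (log2 differences 0.14, -0.15, 0.17, -0.69 and 0.40).

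**Figure D1:**
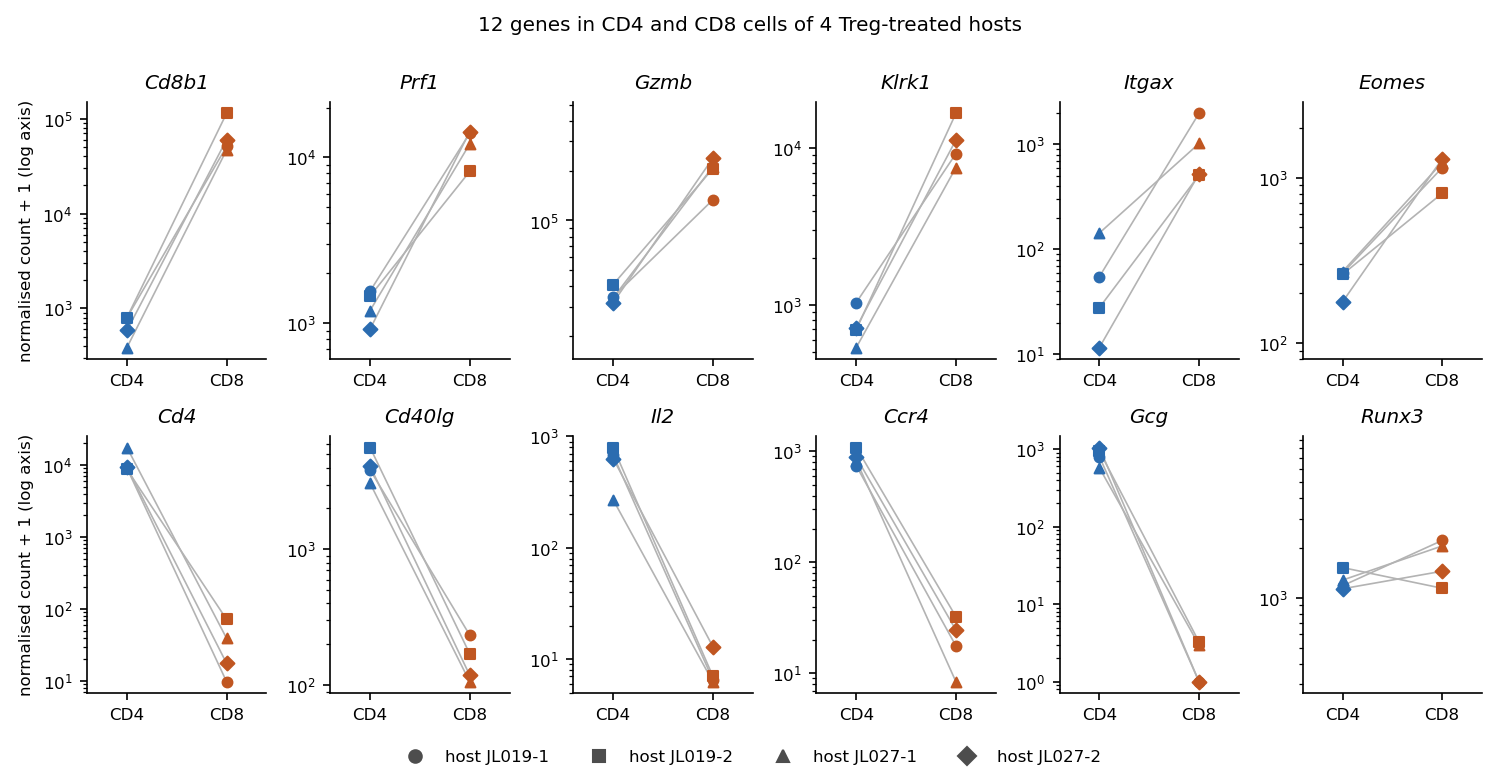
Normalised counts plus 1 (log axis) of 12 genes in CD4 (blue) and CD8 (orange) cells, with grey lines joining the libraries of one host and marker shapes giving the host. In 11 panels the CD4 and CD8 points do not overlap, and for Runx3 they do, with the line of host JL019-2 falling.

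Genes of the killing machinery were higher in CD8 cells. Of 22 measured members of the cytotoxic list, 14 were higher in CD8 cells, 2 were lower and 6 were not called, and the median difference was 1.01 against -0.03 over all genes. The list's median within each host was 0.38, 1.03, 1.27 and 1.36. Prf1 (ENSMUSG00000037202), which encodes the pore-forming protein perforin, had normalised counts of 13989, 8224, 12054 and 14299 in the CD8 libraries and 1555, 1452, 1187 and 917 in the CD4 libraries (log2 difference 3.24 ± 0.21 (SE), adjusted p = 8.57e-08). Gzmb, a granzyme that triggers apoptosis, had 133187, 205511, 211116 and 237816 in the CD8 libraries and 34582, 41029, 34022 and 31893 in the CD4 libraries (log2 difference 2.45 ± 0.19 (SE), adjusted p = 4.18e-07). All CD8 values of both genes lay above all CD4 values, and Gzmb was also present in every CD4 library.

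Other granzymes differed by different amounts. Gzmk had 7267, 17126, 7736 and 8971 in the CD8 libraries and 1499, 1224, 1565 and 1639 in the CD4 libraries (log2 difference 2.71 ± 0.30 (SE), adjusted p = 1.88e-05). Gzma, another granzyme of killer cells, was 17.3-fold higher in CD8 cells by the means, with 83180.5, 224324, 94552 and 117108 there and 10298, 9389, 4395 and 5853 in CD4 cells. The rarer granzymes Gzmd, Gzme and Gzmf were called with log2 differences of 3.30, 3.18 and 2.73. Over the 15 alternatives these lay between 1.63 and 4.96, 1.84 and 4.51, and 2.10 and 3.35, and the calls were kept in 11, 9 and 13. Gzmd and Gzmf did not overlap, but Gzme had 37.7, 76.5, 159 and 103 in the CD8 libraries and 67.7, 2.403, 0.981 and 15.2 in the CD4 libraries, and in host JL019-1 the CD4 value was the higher one. Gzmc was not called and overlapped, with 4743, 5694, 1987 and 4737 in the CD4 libraries and 2836, 6113, 5052 and 5768 in the CD8 libraries (log2 difference 0.25 ± 0.28 (SE), adjusted p = 0.622). Gzmd, Gzme and Gzmf are close copies of each other, and how the authors' counting split their reads is not stated.

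Crtam, an adhesion receptor of activated CD8 and NK cells, had 2108, 1979, 1969 and 2258 in the CD8 libraries and 226, 293, 283 and 229 in the CD4 libraries (log2 difference 3.01 ± 0.23 (SE), adjusted p = 4.02e-07). Fasl, the ligand of the death receptor Fas, was 2.26-fold higher in CD8 cells (log2 difference 1.23 ± 0.19 (SE), adjusted p = 4.84e-04) with no overlap. The 2 members that were lower in CD8 cells were Srgn, which encodes the granule proteoglycan serglycin (log2 difference -1.37), and Tnfsf10, which encodes the death ligand TRAIL (-0.93). The Tnfsf10 values did not overlap, at 1468, 1475, 1493 and 1570.1 in the CD4 libraries and 709, 865, 989.7 and 628 in the CD8 libraries. Srgn had 74008, 81940, 39832 and 69076 in the CD4 libraries and 19896, 52325, 17257 and 20550.1 in the CD8 libraries, and its groups overlapped because the CD8 value of JL019-2 lay above the CD4 value of JL027-1.

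Receptors shared with natural killer (NK) cells formed the list with the highest median. Of 22 measured, 13 were higher in CD8 cells, none was lower and 9 were not called, with a median of 1.55 and within-host medians of 1.21, 1.95, 1.70 and 1.60. Without CD4 syngeneic replicate JL019-2, 14 were higher in CD8 and 2 in CD4 cells. Klrk1, which encodes the activating receptor NKG2D, had 9242, 16710.4, 7527 and 11291 in the CD8 libraries and 1037, 697, 535 and 717 in the CD4 libraries (log2 difference 3.88 ± 0.42 (SE), adjusted p = 1.38e-05). Klrc1, which encodes the inhibitory receptor NKG2A, had 27727, 35609, 23496 and 27450.4 in the CD8 libraries and 7921, 7039.96, 4507 and 4724 in the CD4 libraries (log2 difference 2.27 ± 0.22 (SE), adjusted p = 4.70e-06). Both were free of overlap.

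Klrb1b had 1193, 1257, 679.9 and 1187 in the CD8 libraries and 164, 108, 29.6 and 57.1 in the CD4 libraries (log2 difference 3.80 ± 0.44 (SE), adjusted p = 2.69e-05), and Cd244a, which encodes the SLAM family receptor 2B4, was 9.07-fold higher in CD8 cells (log2 difference 3.19 ± 0.50 (SE), adjusted p = 4.68e-04). Klrg1, a receptor of short-lived effector cells, was not called (log2 difference 0.58 ± 0.22 (SE), adjusted p = 0.111). Ncr1 and Klrb1c, which define NK cells, were not called: Ncr1 had 66.4, 40.4, 60.2 and 107 in the CD8 libraries and 21.3, 31.8, 21.8 and 46.3 in the CD4 libraries, and Klrb1c had 223, 336, 76.9 and 75.8 in the CD8 libraries and 124, 87.2, 76.05 and 149 in the CD4 libraries. The summed level of the 9 NK markers lay between 87660 and 232600 in CD8 and between 5781 and 13790 in CD4 libraries, of which Gzma alone held 94.9% to 96.4% and 74.7% to 76.5%. The other 8 summed to between 3616 and 8270 in CD8 and between 1386 and 3487 in CD4 libraries. The 3 members called were Gzma, Eomes and Fcer1g, and effector CD8 cells also express Gzma and Eomes. The part of NK cells in these results was not tested. In bulk libraries a larger number of cells of one kind and more RNA per cell cannot be told apart.

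Cytokine genes went the other way. Of 19 measured effector and helper cytokines, 14 were higher in CD4 cells, none was higher in CD8 cells and 5 were not called, with a median of -1.98 and within-host medians of -2.44, -2.20, -1.19 and -1.91. Il2 (ENSMUSG00000027720), the T-cell growth factor, had 678, 794, 269 and 632 in the CD4 libraries and 5.56, 6.04, 5.27 and 11.99 in the CD8 libraries (log2 difference -6.14 ± 0.47 (SE), adjusted p = 4.18e-07). Il4, the type 2 helper cytokine, had 1622, 1787, 826 and 1907 in the CD4 libraries and 29.7, 77.4, 38.6 and 36.01 in the CD8 libraries (log2 difference -5.08 ± 0.45 (SE), adjusted p = 1.70e-06). Il3, a growth factor of blood cells, had 1475, 1402, 365 and 1658 in the CD4 libraries and 29.1, 11.8, 8.56 and 31.6 in the CD8 libraries (log2 difference -5.83 ± 0.67 (SE), adjusted p = 2.65e-05). The CD4 values of all 3 lay above all CD8 values, and the lowest CD4 value of each came from host JL027-1.

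Ebi3, a subunit of the interleukins 27 and 35, had 3672, 4546, 1572 and 2449 in the CD4 libraries and 95.6, 148, 114 and 125 in the CD8 libraries (log2 difference -4.56 ± 0.37 (SE), adjusted p = 6.36e-07). Il21, which supports B cells, was 6.98-fold higher in CD4 cells (log2 difference -2.87 ± 0.45 (SE), adjusted p = 4.90e-04), and Il13, Il10, Tnf and Lta were called with log2 differences of -2.69, -1.98, -1.49 and -1.71. Ifng, which encodes interferon gamma and which both lineages are known to make, was not called: it had 7395, 11048, 5285 and 6888 in the CD4 libraries and 6541, 11806, 5649 and 8285 in the CD8 libraries (log2 difference 0.07 ± 0.25 (SE), adjusted p = 0.892), and the groups overlapped. The median of the cytokine list in allogeneic hosts was -1.59.

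Myeloid markers were measured beside these CD4 differences. The sum of 15 myeloid marker genes lay between 25790 and 91810 in CD4 libraries and between 12510 and 32880 in CD8 libraries. S100a8 had 44215, 24029, 12431 and 14715 in the CD4 libraries and 6883, 15682, 6514 and 5706 in the CD8 libraries (log2 difference -1.40 ± 0.74 (SE), adjusted p = 0.258), so the groups overlapped and the gene was not called. S100a9 and Lyz2 were not called either (log2 differences -1.38 and -1.28). Within hosts each of these 3 genes was higher in CD4 cells in 4 of 4 hosts. The median of the list was -1.03, with 12 of 15 members below 0 and within-host medians of -1.32, -0.78, -0.83 and -0.91. Ms4a6c, which is found in monocytes and also in lymphoid cells, was called (log2 difference -2.38 ± 0.43 (SE), adjusted p = 0.00148), and Itgam was the 1 member higher in CD8 cells (log2 difference 1.25), a call kept in 8 of 15 alternatives. Without CD4 syngeneic replicate JL019-2, 6 of the 15 were higher in CD4 cells and 2 in CD8 cells. The part of these cells in the cytokine and interferon results was not tested.

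**Figure D2:**
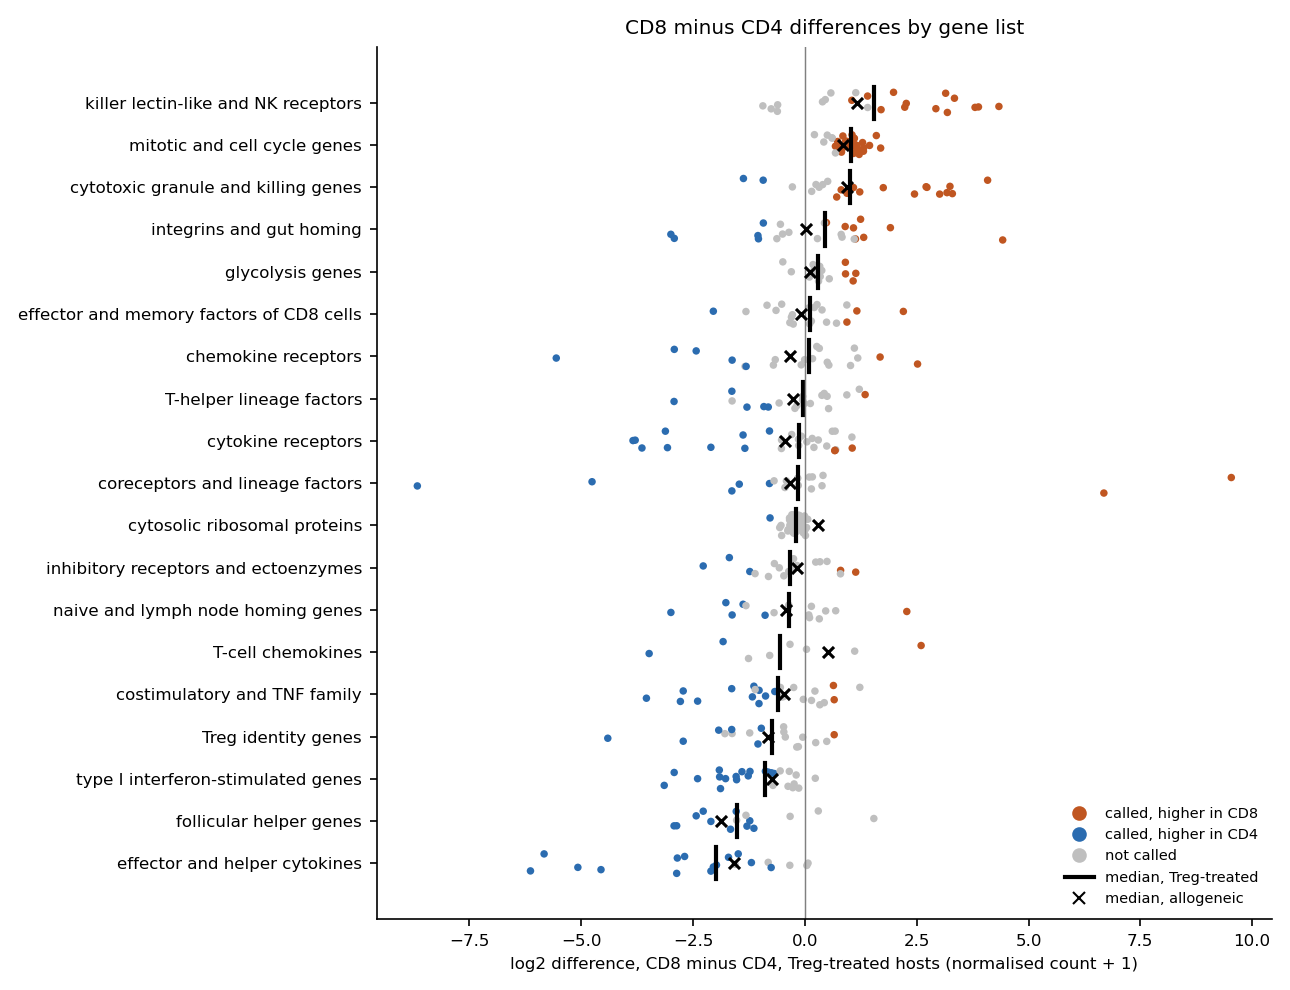
Log2 differences (CD8 minus CD4, normalised count plus 1) of every measured member of 19 gene lists in Treg-treated hosts, with called genes in orange (higher in CD8) or blue (higher in CD4), a black bar at the list median and a cross at the median in allogeneic hosts. NK receptors, mitotic genes and cytotoxic genes have the highest medians, and cytokines, follicular helper genes and interferon-stimulated genes the lowest.

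Chemokines and their receptors were called in both directions. Ccl5, which attracts effector cells, had 6065, 17009, 3534 and 5583 in the CD8 libraries and 1116, 1459.8, 875 and 1058 in the CD4 libraries (log2 difference 2.60 ± 0.41 (SE), adjusted p = 5.41e-04), without overlap. Ccl1, the ligand of CCR8, had 16332, 16301, 5745 and 14478 in the CD4 libraries and 707, 1619, 990.3 and 1246 in the CD8 libraries (log2 difference -3.48 ± 0.37 (SE), adjusted p = 1.10e-05), and Cxcl10, an interferon-induced chemokine, was called with overlap (log2 difference -1.83 ± 0.28 (SE), adjusted p = 4.48e-04). These were the 3 called among 8 chemokines, and the other 5 were not called. Of 20 chemokine receptors, 2 were higher in CD8 cells and 5 in CD4 cells. Ccr4, a receptor of helper cells and Treg, had 739.7, 1082, 826 and 883 in the CD4 libraries and 16.7, 31.4, 7.41 and 23.6 in the CD8 libraries (log2 difference -5.56 ± 0.31 (SE), adjusted p = 1.75e-08). Ccr9, which guides T cells to the small intestine, had 3271, 3243, 7569 and 3408 in the CD4 libraries and 544, 499, 740 and 412 in the CD8 libraries (log2 difference -2.92 ± 0.26 (SE), adjusted p = 2.22e-06). No CD8 value reached a CD4 value for either receptor.

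Ccr7, the receptor for entry to lymph nodes, was 3.06-fold higher in CD4 cells (log2 difference -1.63 ± 0.23 (SE), adjusted p = 2.31e-04) and Cxcr5, the receptor for B-cell follicles, 5.08-fold (log2 difference -2.43 ± 0.37 (SE), adjusted p = 3.69e-04). In CD8 cells Cx3cr1, a receptor of effector cells, was 5.64-fold higher (log2 difference 2.52 ± 0.39 (SE), adjusted p = 4.51e-04). Cxcr3, which follows interferon-induced chemokines, was not called (log2 difference -0.08 ± 0.16 (SE), adjusted p = 0.791).

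Among integrins and homing genes 8 of 22 were higher in CD8 cells and 5 in CD4 cells. Itgax, which encodes the integrin CD11c, had 1977, 508, 1019 and 524 in the CD8 libraries and 53.97, 26.9, 142 and 10.6 in the CD4 libraries (log2 difference 4.42 ± 0.40 (SE), adjusted p = 2.40e-06), with no overlap and a spread of more than an order of magnitude among the CD4 libraries. Itga1 and Itga4, the alpha chains of the collagen receptor and of the gut and vascular receptor, were 3.94-fold and 2.09-fold higher in CD8 cells by the means (log2 difference 1.91 ± 0.36 (SE), adjusted p = 0.00218, and log2 difference 1.13 ± 0.22 (SE), adjusted p = 0.00246). Gpr15, a receptor for homing to the colon, had 1253, 998, 923 and 1295 in the CD4 libraries and 201, 171, 74.5 and 139.7 in the CD8 libraries (log2 difference -3.00 ± 0.34 (SE), adjusted p = 2.29e-05). Gpr18, a lipid receptor of intestinal CD8 cells, was 2.198-fold higher in CD8 cells (log2 difference 1.09 ± 0.17 (SE), adjusted p = 5.29e-04). Itgax also marks dendritic cells: the sum of 10 dendritic cell markers lay between 2357 and 3643 in CD8 and between 5172 and 11410 in CD4 libraries. Without Itgax itself and Cd74 the other 8 summed to between 921 and 1120 in CD8 and between 1062 and 2537 in CD4 libraries. Cd74, which encodes the class II invariant chain, was 7.36-fold higher in CD4 cells (log2 difference -2.83 ± 0.38 (SE), adjusted p = 1.21e-04).

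CD40 ligand, through which helper cells license antigen-presenting cells, gave a difference without overlap. Cd40lg had 3847, 5619, 3066 and 4099.7 in the CD4 libraries and 233, 169.8, 105 and 118 in the CD8 libraries (log2 difference -4.76 ± 0.30 (SE), adjusted p = 6.52e-08). Of 24 costimulatory and tumour necrosis factor family genes, 11 were higher in CD4 cells and 2, Cd27 and Tnfrsf9, in CD8 cells (log2 differences 0.64 and 0.65), of which Tnfrsf9 kept its call in 5 of 15 alternatives and Cd27 in 8. Tnfsf11, which encodes the osteoclast and dendritic cell factor RANKL, had 1412, 1362, 1853 and 2027 in the CD4 libraries and 129.9, 125, 169 and 139 in the CD8 libraries (log2 difference -3.54 ± 0.27 (SE), adjusted p = 4.36e-07). Tnfrsf4, which encodes the costimulatory receptor OX40, had 48769, 62436, 22196 and 32943 in the CD4 libraries and 4556, 9128, 4807 and 5890.5 in the CD8 libraries (log2 difference -2.72 ± 0.31 (SE), adjusted p = 2.56e-05). Neither gene overlapped. Tnfsf8 and Tnfrsf18, the CD30 ligand and the receptor GITR, were called with log2 differences of -2.78 and -1.64.

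Follicular helper genes were higher in CD4 cells in 10 of 15 measured members and in CD8 cells in none, with a median of -1.53. The within-host medians were -0.86, -1.85, -1.69 and -1.42. Maf, a factor that drives Il4 and Il21, had 2324, 2733, 2849 and 2795 in the CD4 libraries and 284, 357, 379.7 and 389.5 in the CD8 libraries (log2 difference -2.93 ± 0.27 (SE), adjusted p = 2.69e-06). Icos, the costimulator of follicular helper cells, was 2.14-fold higher in CD4 cells (log2 difference -1.14 ± 0.16 (SE), adjusted p = 2.10e-04). Both were without overlap. Tcf7, which encodes TCF-1 and marks memory and follicular cells, was not called although its groups did not overlap (2825, 3833, 5670.4 and 4422 in the CD4 libraries and 1975, 679, 2628 and 1989 in the CD8 libraries; log2 difference -1.32 ± 0.42 (SE), adjusted p = 0.054). 

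Inhibitory receptors were called in both directions. Of 18 measured, 2 were higher in CD8 cells, 3 in CD4 cells and 13 were not called. Over all genes 5.99% were higher in CD8 and 5.35% in CD4 cells. Without CD4 syngeneic replicate JL019-2 the counts were 3 and 7. Havcr2, which encodes TIM-3, had 9945, 7248, 10076 and 10759.6 in the CD8 libraries and 4170.3, 3934, 6468 and 3155 in the CD4 libraries (log2 difference 1.14 ± 0.21 (SE), adjusted p = 0.00202), with no overlap. Pdcd1, which encodes PD-1, was 1.75-fold higher in CD8 cells by the means, with overlap (log2 difference 0.80 ± 0.20 (SE), adjusted p = 0.0165), and kept its call in 11 of 15 alternatives. Cd200r1, Cd200 and Btla were higher in CD4 cells (log2 differences -1.69, -2.27 and -1.23). Ctla4, Lag3 and Tigit were not called (log2 differences -0.47, 0.80 and -0.36).

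Most transcription factors of effector differentiation were not called. Eomes, a T-box factor of killer and memory cells, had 1146, 803, 1232 and 1297 in the CD8 libraries and 263, 259, 269 and 176 in the CD4 libraries (log2 difference 2.20 ± 0.22 (SE), adjusted p = 4.95e-06), without overlap. Tbx21, which encodes the related factor T-bet, was not called: it had 7661, 2195, 6634 and 5907 in the CD8 libraries and 2858, 2515, 3082 and 2209.5 in the CD4 libraries (log2 difference 0.94 ± 0.31 (SE), adjusted p = 0.0643), and the CD8 value of host JL019-2 lay below every CD4 value. Id3, an inhibitor of E proteins, had 1482, 2004, 1259 and 2905 in the CD4 libraries and 223, 409.5, 587 and 687 in the CD8 libraries (log2 difference -2.05 ± 0.26 (SE), adjusted p = 7.06e-05), with no overlap. Of 21 effector and memory factors, 3 were higher in CD8 cells (Eomes, Myb and Prdm1), 1, Id3, in CD4 cells and 17 were not called. Over all genes 5.99% were higher in CD8 and 5.35% in CD4 cells, so 1 of 21 is near the share over all genes. Prdm1, which encodes Blimp-1, was called (log2 difference 0.94 ± 0.27 (SE), adjusted p = 0.0312) and lost its call in 6 of 15 alternatives. Of 20 helper lineage factors, Ikzf3 alone was higher in CD8 cells (log2 difference 1.35 ± 0.29 (SE), adjusted p = 0.00599), again near the share over all genes. It kept its call in 12 of 15 alternatives. Another 5, among them Maf, Gata3, Bcl6 and Ahr, were higher in CD4 cells, and 14 were not called. Without host JL027-1 the 5 became 2, and without CD4 syngeneic replicate JL019-2 the counts were 3 in CD8 and 7 in CD4 cells.

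Genes of Treg identity differed in part. Foxp3, the master factor of Treg, had 172, 127, 147 and 178 in the CD4 libraries and 236, 109, 153 and 126 in the CD8 libraries (log2 difference -0.05 ± 0.69 (SE), adjusted p = 0.975), and the 3 Treg libraries of Treg-treated hosts had 285, 265 and 293. The groups overlapped, so Foxp3 did not set the CD4 libraries apart from the CD8 libraries. In allogeneic hosts, without added Treg, the Foxp3 means were 438 ± 109 in CD4 and 306 ± 147 in CD8 cells (SD, n = 4). At day 0 they were 1061 ± 118 and 8.25 ± 2.02 (SD, n = 2), so the day 0 CD4 mean lay above the 3 Treg libraries and the day 0 CD8 mean below all 8 libraries compared. Of 18 measured genes of the list, 6 were higher in CD4 cells and 1 in CD8 cells, against 5.35% and 5.99% of all genes. Izumo1r, which encodes the folate receptor FR4 of Treg and other antigen-experienced CD4 cells, had 2833, 3599.5, 1622 and 3374 in the CD4 libraries and 76.7, 172, 141 and 143 in the CD8 libraries (log2 difference -4.41 ± 0.24 (SE), adjusted p = 1.75e-08). Tnfrsf4, Tnfrsf18 and Socs2 (log2 difference -0.97) belong to the same list and are also expressed by activated conventional CD4 cells. Without CD4 syngeneic replicate JL019-2, 9 were higher in CD4 cells.

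Genes of cell division were higher in CD8 cells in 28 of 34 measured members and in CD4 cells in none, with a median of 1.03. The within-host medians were 1.08, 0.78, 0.75 and 1.34. Tpx2, a spindle assembly factor, had 7089, 5062, 7827 and 8471 in the CD8 libraries and 2332, 2591, 4555 and 2957 in the CD4 libraries (log2 difference 1.22 ± 0.17 (SE), adjusted p = 2.21e-04). Top2a, the topoisomerase that untangles replicated DNA, had 15683, 17080.2, 18150.3 and 15888 in the CD8 libraries and 7889, 8361, 11129.6 and 8522 in the CD4 libraries (log2 difference 0.91 ± 0.14 (SE), adjusted p = 4.09e-04). Neither overlapped. Mki67, the proliferation marker, was 2.29-fold higher in CD8 cells (log2 difference 1.21 ± 0.21 (SE), adjusted p = 0.00102), with overlap, since CD4 cells of host JL027-1 held 6727 and CD8 cells of JL019-2 held 6266. The largest differences were those of Bub1b and Kif20a, a checkpoint kinase and a kinesin of cell division (1.69 and 1.60), and the helicase subunits Mcm2 and Mcm7 gave 1.45 and 1.17. The median of the list was 0.84 in allogeneic hosts, 1.68 at day 0 and -0.14 in syngeneic hosts (-0.08 without host JL019-2, which gave the CD4 library with both coreceptors). Differences between these were not tested.

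Glycolysis genes were called in 4 of 20 members, all higher in CD8 cells, with a median of 0.28. They were the phosphofructokinase Pfkp (log2 difference 1.14 ± 0.23 (SE), adjusted p = 0.00372), the glucose transporter Slc2a3 (log2 difference 1.08) and the lactate transporters Slc16a1 and Slc16a3 (0.91 and 0.90). The groups overlapped in all 4, and the CD8 library of host JL019-2 was the lowest CD8 library in each: Slc2a3 had 7294, 2053, 6158 and 3372 in the CD8 libraries and 1683, 1777, 4073 and 1281 in the CD4 libraries. Slc16a1 and Slc16a3 lost their calls in 6 and 8 of 15 alternatives.

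Interferon-stimulated genes were higher in CD4 cells in 16 of 25 members and in CD8 cells in none. Their median was -0.88 and the within-host medians were -1.14, -0.96, -1.06 and -1.18. Ifi27l2a had 80301, 89501, 43516 and 85767 in the CD4 libraries and 5955, 15368, 6567 and 7275 in the CD8 libraries (log2 difference -3.15 ± 0.22 (SE), adjusted p = 1.56e-07). Oasl2, an oligoadenylate synthetase-like protein, had 667, 724, 1051 and 829.5 in the CD4 libraries and 169, 123, 123 and 209 in the CD8 libraries (log2 difference -2.40 ± 0.20 (SE), adjusted p = 8.54e-07). Both were without overlap, as was the antiviral exonuclease Isg20, which was 3.64-fold higher in CD4 cells (log2 difference -1.91 ± 0.22 (SE), adjusted p = 2.91e-05). Isg15 and Rsad2 gave log2 differences of -1.54 and -1.77. The median of the list was -0.73 in allogeneic hosts, -0.27 at day 0 and -0.07 in syngeneic hosts (-0.24 without host JL019-2), and differences between these were not tested.

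Genes of naive cells and lymph node entry were higher in CD4 cells in 5 of 16 members. Il7r, the interleukin 7 receptor of resting and memory cells, was 2.32-fold higher in CD4 cells with overlap (log2 difference -1.38 ± 0.21 (SE), adjusted p = 4.42e-04). The Ly6c genes split: Ly6c1 had 773, 1059, 306 and 626 in the CD4 libraries and 69.9, 137, 74.5 and 51.8 in the CD8 libraries (log2 difference -3.00 ± 0.28 (SE), adjusted p = 3.15e-06) and Ly6c2 had 15953, 50309.8, 17299 and 18128 in the CD8 libraries and 8156, 5301, 3692 and 2844 in the CD4 libraries (log2 difference 2.28 ± 0.61 (SE), adjusted p = 0.0222). Ly6c2 kept its call in 11 of 15 alternatives. These are close copies whose reads the authors' counting could split.

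Among 27 cytokine receptors 9 were higher in CD4 cells and 3 in CD8 cells, or 10 and 7 without CD4 syngeneic replicate JL019-2. Il1r1, a receptor for interleukin 1, had 264, 384, 643 and 537 in the CD4 libraries and 22.5, 38.9, 40.8 and 20.2 in the CD8 libraries (log2 difference -3.84 ± 0.37 (SE), adjusted p = 4.40e-06). Il17rb and Il9r, receptors for the type 2 cytokine interleukin 25 and for interleukin 9, gave log2 differences of -3.64 and -3.79. Ifngr2, a subunit of the interferon gamma receptor, had 422, 579, 161 and 369 in the CD4 libraries and 56.3, 52.8, 30.97 and 28.8 in the CD8 libraries (log2 difference -3.07 ± 0.32 (SE), adjusted p = 9.00e-06). All CD4 values of these 4 genes lay above the CD8 values.

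Of 49 cytosolic ribosomal protein genes 1 was called, Rps27 (log2 difference -0.78 ± 0.22 (SE), adjusted p = 0.0286; kept in 10 of 15 alternatives), and the median was -0.20. The within-host medians ran from -1.14 in JL019-1 to 0.43 in JL019-2, on both sides of 0. Among erythroid markers Hba-a2, an alpha globin, had 2102, 2041, 20948 and 25071 in the CD4 libraries and 807, 1247, 7075 and 7749.6 in the CD8 libraries (log2 difference -1.34 ± 0.75 (SE), adjusted p = 0.286), with all 4 JL027 libraries above all 4 JL019 libraries. None of 9 erythroid markers was called, although Hba-a2 was higher in CD4 cells in 4 of 4 hosts and 8 of the 9 differences were below 0. The median was -1.18 and the within-host medians were -0.92, -0.72, -1.36 and -1.63. Without CD4 syngeneic replicate JL019-2, 6 were, all higher in CD4 cells.

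One B-cell marker was higher in CD8 cells: Cd79b, which encodes a B-cell receptor subunit, had 969.7, 1898, 818 and 977 in the CD8 libraries and 232, 241, 114 and 157 in the CD4 libraries (log2 difference 2.62 ± 0.42 (SE), adjusted p = 5.43e-04), without overlap. Of 11 B-cell markers it was the only one called higher in CD8 cells, and Cd79a and Pax5 were called higher in CD4 cells, both of which lost their calls without host JL027-1. The part of B cells was not tested. The sum of the 11 lay between 1378 and 2134 in CD8 and between 610.5 and 1152 in CD4 libraries. Cd79b alone held 58.7% to 88.9% of it in CD8 libraries, and the other 10 summed to between 235.9 and 577 in CD8 and between 369 and 1038 in CD4 libraries. The median of the list was -0.41, with 7 of 11 members below 0.

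Outside the lists, the genes with the lowest p among those without overlap that were higher in CD8 cells included Cd72, a receptor best known on B cells, with 801, 1065, 508 and 696 in the CD8 libraries and 92.3, 81.6, 49.4 and 60.8 in the CD4 libraries (log2 difference 3.41 ± 0.19 (SE), adjusted p = 1.75e-08). Jaml, a junction adhesion molecule of activated T cells, had 2631, 3742, 1999 and 2945 in the CD8 libraries and 308, 442, 209 and 422 in the CD4 libraries (log2 difference 3.06 ± 0.20 (SE), adjusted p = 8.19e-08). Smyd1, a muscle histone methyltransferase whose gene neighbours Cd8b1, had 167, 272, 232 and 228 in the CD8 libraries and 6.48, 0.816, 0 and 0.734 in the CD4 libraries (log2 difference 6.66 ± 0.64 (SE), adjusted p = 4.23e-06). CD4 libraries were at or near 0 for Smyd1, so no fold is given. The lipid flippase Atp8b4 and the ceramide kinase Cerk were 4.27-fold and 8.83-fold higher in CD8 cells, and Tsga10, Bend4, Snai3, Usp11 and Susd1 completed the 10, with log2 differences of 2.89, 3.29, 2.10, 2.74 and 2.54.

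Among genes higher in CD4 cells Lrrc6, a protein of cilia assembly, had 718, 931, 531 and 923 in the CD4 libraries and 3.33, 7.36, 6.29 and 8.73 in the CD8 libraries (log2 difference -6.73 ± 0.32 (SE), adjusted p = 3.01e-09). P2rx7, the receptor that senses extracellular ATP, had 2726, 3209.6, 3141 and 2909 in the CD4 libraries and 440.1, 709, 619.7 and 474 in the CD8 libraries (log2 difference -2.44 ± 0.15 (SE), adjusted p = 3.40e-08). Ifi204, an interferon-induced DNA sensor, had 2171, 2105, 3178 and 2896 in the CD4 libraries and 79.99, 156, 158 and 133 in the CD8 libraries (log2 difference -4.31 ± 0.30 (SE), adjusted p = 1.59e-07). Art2a, an ecto-ADP-ribosyltransferase that acts on P2RX7, was 8.73-fold higher in CD4 cells (log2 difference -3.20 ± 0.24 (SE), adjusted p = 2.84e-07). Selenop, Tspan32, Pdlim4, Asb2 and Serpina3f gave log2 differences of -2.44, -2.41, -4.40, -3.18 and -2.46, and none of these genes overlapped. Sostdc1, a secreted inhibitor of BMP and Wnt signals, had 1304, 1932, 1949 and 3083 in the CD4 libraries and 21.1, 125, 128 and 152 in the CD8 libraries (log2 difference -4.52 ± 0.42 (SE), adjusted p = 3.01e-06).

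Whether the CD8 minus CD4 difference itself was another in Treg-treated than in allogeneic hosts was tested as the difference of the differences. It was called for 1 of 16741 genes (0.00597%), with 668 at an unadjusted p under 0.05. Across all genes the differences in the 2 kinds of host, which share no library, had a Spearman's rho of 0.536. Of the 1898 called genes 1867 (98.4%) had the same sign in allogeneic hosts, among them Prf1, Klrk1, Il2 and Ccr4 with allogeneic log2 differences of 2.67, 3.20, -4.40 and -3.85. The called genes were chosen by their difference in Treg-treated hosts, and over them rho was 0.899. The genes are not independent replicates. For Il2 the difference of the differences was -1.73, for Ccr4 -1.71 and for Ifngr2 -2.31, and these were not called.

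**Figure D3:**
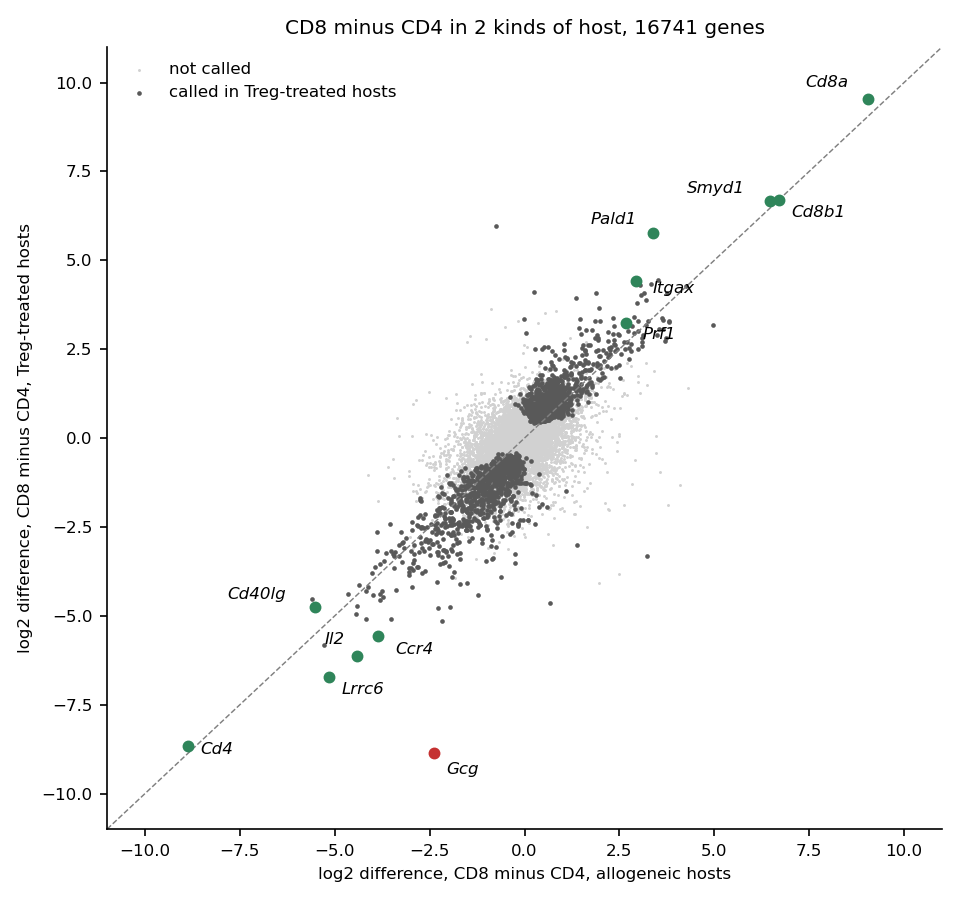
Log2 difference CD8 minus CD4 of each gene in allogeneic hosts (horizontal) and in Treg-treated hosts (vertical), with genes called in Treg-treated hosts in dark grey, 11 examples in green, Gcg in red and a dashed line of equal values. Gcg lies at -2.38 and -8.87, far below the dashed line.

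The gene was Gcg (ENSMUSG00000000394), which encodes the hormone precursor proglucagon. In Treg-treated hosts it had 802, 945, 573 and 1050.5 in the CD4 libraries and 0, 2.26, 1.98 and 0 in the CD8 libraries (log2 difference -8.87 ± 0.54 (SE), adjusted p = 3.40e-08). In allogeneic hosts it had 3.29, 5.03, 10.2 and 11.8 in CD4 cells and 0, 0, 0.921 and 1.61 in CD8 cells. Gcg was thus at or near 0 in CD8 cells of both host types, and all CD4 values of Treg-treated hosts lay above all CD4 values of allogeneic hosts. The difference of the differences was -6.48 ± 0.76 (SE, adjusted p = 0.00347). It lost its call with a pseudocount of 0.1 (adjusted p = 0.808) and without host JL019-1 (adjusted p = 0.0717), with values of -6.55 and -6.22. Treg of Treg-treated hosts had 68.8, 115 and 436, and the mean of CD4 cells of syngeneic hosts was 251 ± 92.9 (SD, n = 3).

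The T-cell receptor (TCR) of the same libraries had been read from the same cDNA, and gave measures that the RNA comparison did not use. Clonotypes were told apart by V gene, J gene and CDR3 protein sequence. Reads of the beta chain (TRB) per library were 27618, 30048, 19491 and 17429 for CD4 and 15578, 133115, 13834 and 22117 for CD8 cells, so the CD8 library of JL019-2 was the deepest. PCR reads without molecular identifiers are not independent molecules.

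The TRB libraries of host JL027-1 shared clonotypes with others. Of the reads of its CD8 library, 64.8% were in clonotypes also found in the CD4 library of host JL027-2, where they held 4.80% of reads. Of the reads of its CD4 library, 54.3% were in clonotypes also found in its own CD8 library, where they held 12.2% of reads. In the other 3 hosts the CD8 and CD4 libraries of one host shared 14.3%, 2.12% and 1.85% of CD4 and 7.23%, 9.10% and 4.94% of CD8 reads. Between the other CD8 and CD4 libraries of different hosts the shared share of CD8 reads ran from 0.638% to 4.29%. In the alpha chain (TRA) the CD8 library of JL027-1 shared 1.55% of its reads with the CD4 library of JL027-2. With the CD4 library of its own host it shared 25.3% of its TRA reads, which were in clonotypes that held 18.3% of the CD4 reads. In the other 3 hosts the CD8 and CD4 libraries shared 3.50% to 13.9% of CD8 and 2.10% to 6.27% of CD4 TRA reads. Between different hosts the shared TRA reads ran from 1.55% to 14.1% of CD8 and from 1.90% to 3.92% of CD4 reads. The origin of this sharing was not tested, and the main results of both chains are given with and without this host.

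CD8 cells had fewer TRB clonotypes than CD4 cells in each host in equal draws. In draws of 8194 reads CD4 libraries held 2481, 2704, 2507 and 2609 and CD8 libraries 1992, 2199.8, 1748 and 1788, so the groups did not overlap. The means were 2575 ± 102 and 1932 ± 208 (SD, n = 4), a ratio of 0.747. The two-sided exact permutation test over the 4 hosts gave p = 0.125, the smallest it can give. Over all reads, whose number differed between libraries, the order turned in host JL019-2, with 12992 clonotypes in 133115 CD8 reads and 6444 in 30048 CD4 reads. It turned there also for clonotypes of at least 2 reads (4811 and 2331), with exact p = 0.625 for both. Without host JL027-1 the ratio was 0.765, and in allogeneic hosts it was 0.746. For TRA, in draws of 6870 reads, the ratio was 0.604, with CD4 cells higher in 4 of 4 hosts (exact p = 0.125), and 0.611 without host JL027-1.

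Clonality, which is 0 when all clonotypes are equally common and 1 when a single clonotype holds all reads, was higher in CD8 cells of every host in equal draws. TRB clonality was 0.167, 0.149, 0.166 and 0.174 in CD4 and 0.176, 0.154, 0.224 and 0.212 in CD8 libraries. The groups overlapped between hosts, and the mean difference within hosts was 0.0279 ± 0.0249 (SD, n = 4, exact permutation p = 0.125). Without host JL027-1 it was 0.0179. In host JL019-1 the order turned when all reads were used (0.204 in CD8 and 0.215 in CD4 cells) and when clonotypes of at least 2 reads were used (0.171 and 0.194), with mean differences over the 4 hosts of 0.0419 and 0.0235 (exact permutation p = 0.25 for each). TRA clonality was 0.155, 0.146, 0.2104 and 0.1402 in CD4 and 0.221, 0.215, 0.368 and 0.302 in CD8 libraries, without overlap, with a mean difference of 0.114 ± 0.0533 (SD, n = 4, exact permutation p = 0.125) and 0.0991 without host JL027-1. Over all reads, without equal draws, the 10 most abundant TRA clonotypes held 28.8, 27.7, 58.04 and 44.2 percent in CD8 and 19.2, 18.1, 27.3 and 14.8 percent in CD4 libraries. For TRB they held 19.9, 16.2, 25.1 and 26.9 percent in CD8 and 19.2, 17.3, 18.8 and 23.8 percent in CD4 libraries, higher in CD8 cells in 3 of 4 hosts (exact permutation p = 0.375). The largest TRB clonotype held 3.23 ± 0.861% of CD8 and 4.31 ± 1.99% of CD4 reads (SD, n = 4, exact permutation p = 0.375), higher in CD4 cells in 3 of 4 hosts. The largest TRA clonotype went the other way, with 10.99 ± 7.35% of CD8 and 5.91 ± 5.72% of CD4 reads (SD, n = 4, exact permutation p = 0.125), higher in CD8 cells in 4 of 4 hosts.

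**Figure D4:**
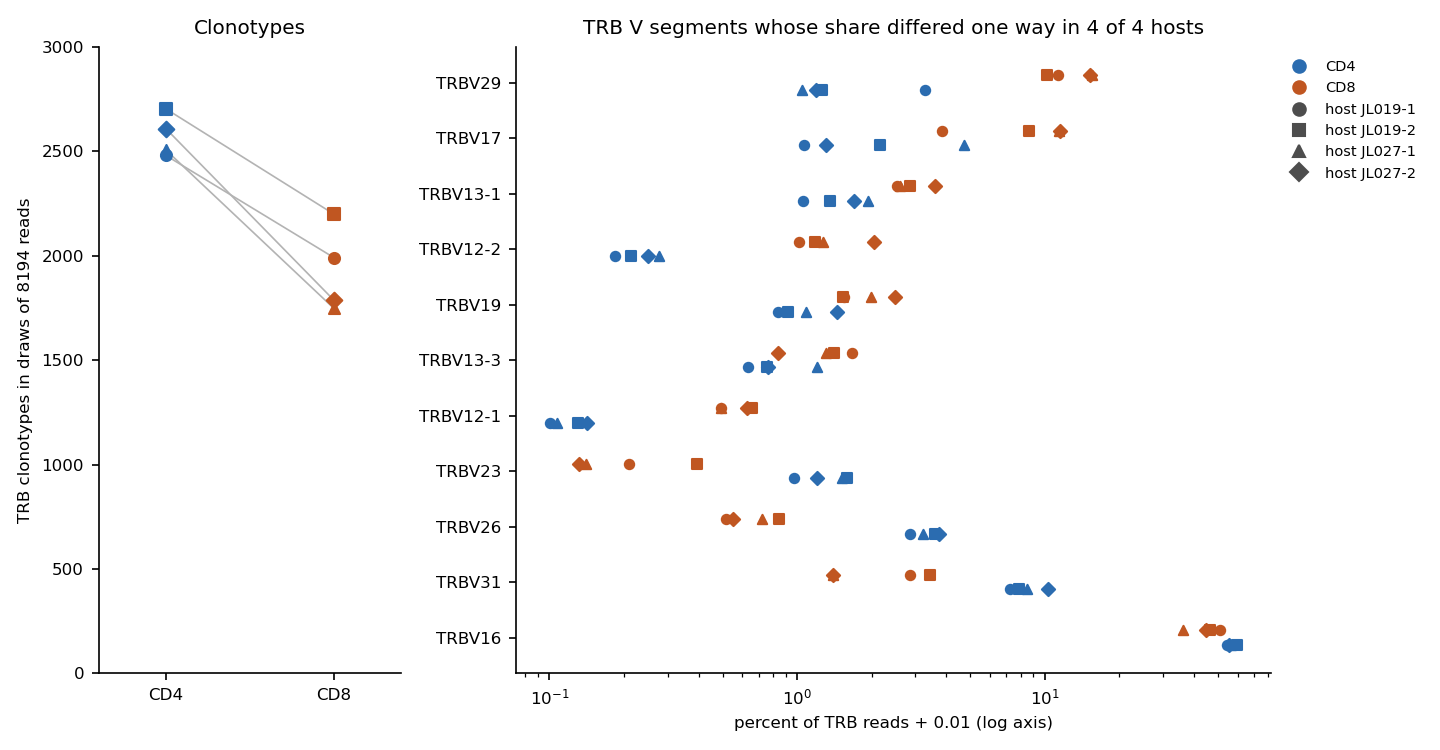
Left, TRB clonotypes in draws of 8194 reads in CD4 (blue) and CD8 (orange) libraries, joined by host; right, percent of TRB reads plus 0.01 (log axis) for the 11 V segments whose share differed one way in all 4 hosts. The lowest CD4 number is 2481 and the highest CD8 number is 2199.85.

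Of 32 TRB V segment names with reads in the 8 libraries, 7 had a higher share of reads in CD8 cells in 4 of 4 hosts and 4 a higher share in CD4 cells in 4 of 4 hosts. Only 22 of the 32 names were also found among the segments of the RNA libraries. Unmatched names stayed in the counts and the adjustment, such as TRBV7-2 with mean shares of 0.00542% in CD8 and 8.32e-04% in CD4 cells. With 4 hosts no segment can pass adjustment over segments (exact p = 0.125, adjusted p = 0.364 for each). Without host JL027-1, 7 were higher in CD8 cells and 6 in CD4 cells in 3 of 3 hosts. TRBV29 held (percent of reads) 3.27, 1.24, 1.04 and 1.18 in CD4 and 11.3, 10.2, 15.5 and 15.2 in CD8 cells. TRBV17 held (percent of reads) 1.06, 2.16, 4.71 and 1.302 in CD4 and 3.85, 8.65, 11.4 and 11.5 in CD8 cells. TRBV31 held (percent of reads) 7.198, 7.88, 8.48 and 10.3 in CD4 and 2.86, 3.44, 1.38 and 1.39 in CD8 cells. CD4 and CD8 shares did not overlap for TRBV29 and TRBV31, and for TRBV17 the CD8 share of JL019-1 lay below the CD4 share of JL027-1.

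Counted by clonotypes in place of reads, TRBV29 was the segment of 11.6% of CD8 and 2.07% of CD4 clonotypes, and TRBV26 of 1.81% and 10.3%. TRBV26 held 0.647 ± 0.151% of CD8 and 3.35 ± 0.397% of CD4 reads (SD, n = 4). TRBV16 had the largest share of TCR reads in both, with 44.5 ± 6.14% and 56.6 ± 2.298%, but its share of clonotypes was 31.2% and 33.03%. In the RNA libraries Trbv16 did not stand out in this way. Its mean normalised counts were 2494 in CD8 and 3795 in CD4 cells, where Trbv12-2 had 2907 in CD8 and Trbv3 3263 in CD4 cells. The cause of this difference between the assays was not tested. Without host JL027-1 the mean shares in CD8 and CD4 cells were 12.2% and 1.898% for TRBV29, 2.56% and 8.45% for TRBV31, 8.002% and 1.51% for TRBV17, 0.627% and 3.39% for TRBV26 and 47.3% and 56.5% for TRBV16. In allogeneic hosts they were 11.5% and 1.66% for TRBV29 and 2.297% and 7.31% for TRBV31.

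Of 58 TRA V segment names with reads in the 8 libraries, 40 were also found among the segments of the RNA libraries. Of the 58, 5 were higher in CD8 cells and 9 in CD4 cells in 4 of 4 hosts, and without host JL027-1 6 and 11 were in 3 of 3 hosts. TRAV4 held (percent of reads) 1.86, 2.20, 2.46 and 4.24 in CD4 and 8.91, 8.92, 13.1 and 17.2 in CD8 cells, without overlap. TRAV5D-4 held (percent of reads) 21.4, 16.96, 30.9 and 18.03 in CD4 and 4.88, 10.4, 1.88 and 11.4 in CD8 cells, also without overlap. TRAV8D-2 was higher in CD8 cells of each host, at 19.3 ± 8.43% against 9.28 ± 2.83% (SD, n = 4), with overlap between hosts.

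The RNA table carries V segments too, counted in the RNA libraries without the TCR-specific PCR. Of its 23 TRB V segments, 5 were called higher in CD8 cells and 7 higher in CD4 cells, and of its 108 TRA V segments 8 were called higher in CD8 and 41 higher in CD4 cells. Trav4d-3 and Trav4n-3 had identical values in each of the 8 libraries, so the TRA segments counted are not all separate measurements. Trbv29 had normalised counts of 829, 308, 68.8 and 166 in the CD4 and 1763, 3080.3, 1886 and 2747 in the CD8 libraries (log2 difference 3.30 ± 0.40 (SE), adjusted p = 4.02e-05). Trbv31 had 1381, 1443, 909 and 1539 in the CD4 and 363, 790.1, 138 and 243 in the CD8 libraries (log2 difference -2.04 ± 0.25 (SE), adjusted p = 5.54e-05). Both groups of values were free of overlap. Over the 17 segments found in both tables with a mean share of at least 0.5% of TRB reads, 15 had the same sign in both assays, and Spearman's rho of the 2 sets of differences was 0.985. For TRA 12 of 15 had the same sign and rho was 0.775. Without host JL027-1 the same sign was found for 15 of 17 TRB segments (rho 0.931) and 11 of 15 TRA segments (rho 0.789). The points share the cDNA of the same libraries, and the values of the V segments of one chain depend on each other because shares sum to the whole.

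**Figure D5:**
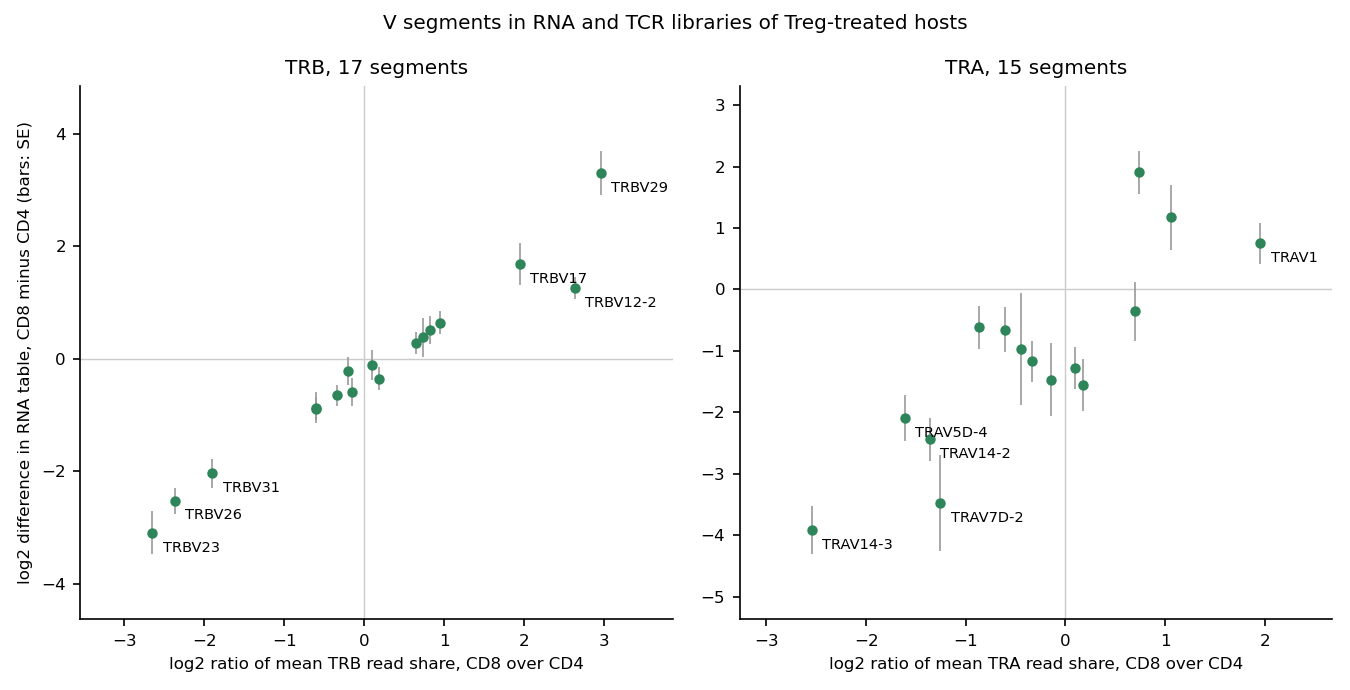
Log2 difference CD8 minus CD4 of V segments in the RNA table (vertical, bars are SE) against the log2 ratio of their mean share of TCR reads (horizontal), for TRB (left, 17 segments) and TRA (right, 15 segments). TRBV29 lies at the top right and TRBV23, TRBV26 and TRBV31 at the bottom left.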

How the data were processed

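RNA and TCR libraries were made from the same full-length cDNA (SMARTer v4, Nextera XT, and nested PCR for TCR), per the labels' protocols. The RNA values are a signal deposited by the authors, counts normalised between libraries in a table with DESeq2 columns, per the file headers. FastQC 0.11.7, kallisto and DESeq2 with GRCm38 and mm10 are named in the submitters' processing notes, and filters and strandedness are not given in the sources used here. For the TCR the authors deposited read counts of productive clonotypes, with each clonotype's percent of its library, per the file headers. Values are not whole, so RNA reads were not recovered and RNA precision rests on the replicates.

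limma 3.58.1 in R 4.3.3 was fitted to log2(value + 1) over all 31 libraries (trend and robust options, Benjamini-Hochberg adjustment over 16741 genes, threshold 0.05), with host as 1 of 14 fixed blocks and 11 residual degrees of freedom. The minimum mean of 1 removed no gene. Pairing comes from the labels. The deviations of the CD8 and CD4 libraries of one host from their group means correlated at -0.107, 0.219, 0.428 and 0.0853 over genes. For CD8 and CD4 libraries of different hosts the correlations ran from -0.496 to 0.256. The TCR measures were means of 20 draws of the lowest library total, with exact sign-flip permutation tests over hosts. V segments without reads in the 8 libraries, and 1 alpha-chain name in the TRB file, were left out of the segment counts. Names without a match in the RNA libraries were kept. Tests were checked on simulated data. The other tools were matplotlib 3.10.9, scipy 1.17.1, pandas 2.3.3 and numpy 2.4.6 under Python 3.11.15.

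Named genes were: every member of the coreceptor list, up to 4 called genes with the lowest p of each other list, and the 10 called genes per direction with the lowest p without overlap and with a mean of at least 100, leaving out predicted genes, receptor segments, mitochondrial and ribosomal genes. Further were those called between host types and 5 genes of an earlier account (Foxp3, Gcg, Id3, Sostdc1 and Gzmc). Others were chosen after their values were seen. Not every gene that the rule names is reported here. The members, gene lists and tests were chosen with earlier results of these data known. List members not in the table were 1 of 23 cytotoxic, 4 of 23 cytokine, 3 of 11 chemokine and 1 of 16 follicular helper genes. Alternatives covered the block, filter, pseudocount, scaling, single hosts and prefixes.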

Additional observations from a re-analysis of the deposited data

Results flagged for a closer look

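In 21 of 298 groups of 4 libraries, 1 library stood apart from the other 3 by Dixon's 95% criterion, on log2 values for genes and on the measured scale for TCR values, where chance flags about 5% of groups. The CD4 library of host JL027-1 accounted for 12 of them, with normalised counts of 17587 for Cd4, 12033 for Cd247, 365.4 for Il3, 5745 for Ccl1, 7569 for Ccr9, 2734 for Ikzf3, 43516 for Ifi27l2a, 13083 for Rps27, 80.2 for Cerk, 6365 for Itga4 and 2772 for Bub1b. Its largest TRA clonotype held 14.5% of reads, against 2.40% to 3.54% in the other CD4 libraries, a gap of 0.905 of the range that was 0.784 on log2 values, where it would not have passed. The CD8 library of JL027-1 stood apart for Klrb1b (679.9).

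The CD8 library of host JL019-2 stood apart for Ikzf3 (2827), Srgn (52325), Ly6c2 (50309.8) and Kif20a (1664), and its CD4 library for Cxcr3 (8601). In host JL027-2 the CD8 library stood apart for Il2 (11.99) and the CD4 library for Eomes (176.3). The CD8 library of JL019-1 stood apart for Sostdc1 (21.1).

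The CD8 minus CD4 difference of Gcg was another in Treg-treated than in allogeneic hosts by the interaction test of limma, with a log2 difference of -6.48 between them (adjusted p = 0.00347).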

How the results depend on the processing

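The host block rests on label numbers. Of 2130 values of single genes under the alternatives 1929 kept their direction and side of the threshold, 149 lost and 34 gained a call in the same direction, and 18 changed sign. Those 18 belong to 9 genes that were called neither with all hosts nor in these alternatives. Leaving out 1 host gave -0.091 to 0.40 for Tox, -0.34 to 0.060 for Patz1, -0.20 to 0.52 for Bcl11b, -0.00524 to 0.24 for Lck, -0.22 to 0.0994 for Foxp3, -0.12 to 0.58 for Gzmc, -0.0374 to 0.93 for Klrb1c and -0.15 to 0.0254 for Cxcr3. In the JL019 hosts alone Lck gave -0.0792, Foxp3 0.12, Gzmc -0.32, Ifng -0.0408 and Cxcr3 0.0650, and in the JL027 hosts alone Patz1 gave 0.0772 and Klrb1c -0.47. Foxp3 gave 0.32 with the library-mean covariate, and Ifng -0.0356 with quantile normalisation. For CD8 against CD4, with 1898 genes called, no replicate block gave 1609, the host as a random block 2107 and only the groups compared with the block 1324. A log2 difference of at least 1 gave 1170, the library mean as a covariate 4769, leaving out CD4 syngeneic replicate JL019-2 3315 and the JL019 hosts alone 85. Leaving out 1 host gave 890 to 1832.

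For the difference between host types, with 1 gene called, no replicate block gave 1, the random block 2, only the groups compared 4, a pseudocount of 0.1 gave 0, the library-mean covariate 3, leaving out CD4 syngeneic replicate JL019-2 4, the JL019 hosts alone 0 and the JL027 hosts alone 7. Leaving out 1 host gave 0 to 2. By limma the counts of 0 came with 684 (pseudocount), 222 (JL019 hosts) and 371 (without host JL019-1) genes at an unadjusted p under 0.05. In the JL019 hosts alone Gcg gave -6.57 (adjusted p = 1.0).

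The clonality difference of 0.0279 was 0.114 for TRA, 0.0419 for all reads, 0.0235 for clonotypes of at least 2 reads and 0.0179 to 0.0353 leaving out 1 host. The clonotype ratio of 0.747 was 0.604 for TRA, 0.838 for all reads, 0.804 for clonotypes of at least 2 reads (exact permutation p = 0.625 for both) and 0.727 to 0.769 leaving out 1 host. The cause of these changes was not tested. RNA depth is unknown, and 4 hosts limit every test. Values of gene lists, marker sums, V segments and TRA without single libraries or genes were taken after seeing the data: without CD4 syngeneic replicate JL019-2, 2 chemokines, 2 Treg identity genes and 2 naive-cell genes were higher in CD8 cells (1 of each with it), 1 follicular helper gene and 1 platelet marker also were (0 with it), and 2 effector factors (1 with it), 3 dendritic cell markers (1 with it) and 1 NK marker (0 with it) were higher in CD4 cells. Without host JL027-1, 1 costimulatory gene (2 with it) and 0 Treg identity and 0 naive-cell genes (1 of each with it) were higher in CD8 cells, and 2 myeloid markers (1 with it) in CD4 cells.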
